A study of Mus musculus with 35 samples.

Results

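*Mpo*, *Elane*, *Prtn3*, *Ctsg* and *Ms4a3* are 5 genes of the early granulocyte program, and they were taken by symbol from the 49671 genes of the count table and followed over all 35 libraries. Each symbol matched 1 row, and 5 of 5 passed the filter on low counts that left 17166 genes for testing. They were measured in lin- HSPCs of C57Bl/6 mice, that is, in hematopoietic stem and progenitor cells obtained by depleting bone marrow of cells that carry markers of mature blood lineages. The cells were transduced with a lentivirus and sorted by its fluorescent proteins (mCherry for the empty vector, mCherry and mEGFP for the constructs), and all 7 groups of 5 libraries then spent 1 week in Methocult M3434, a semi-solid medium, to which GM-CSF, a cytokine that drives granulocyte and macrophage growth, was added at 10 ng/mL.

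Empty is the vector with no construct. G-NHX9 is the mEGFP-tagged fusion of the N-terminal part of the nuclear pore protein NUP98, which is rich in phenylalanine-glycine (FG) motifs, to the homeodomain part of HOXA9 (the article on these data writes G-NHA9). In G-NHX9-8FA some FG phenylalanines were changed to alanine. G-NHX9-21FGAA has more FG motifs changed to alanine pairs, all in the C-terminal part of the NUP98 segment. G-NHX9-midi keeps only that C-terminal FG part, G-NHX9-midi-21FGAA carries the 21FGAA changes in the same truncated backbone and so has lost its FG motifs, and G-NHX9-DDNA is the full-length fusion with a homeodomain mutated to weaken DNA binding. Donor age was labelled as 8 weeks except in 3 libraries (Empty replicates 4 and 5, at 9 and 10 weeks, and G-NHX9 replicate 1, at 11 weeks). Expression was lentiviral and thus not at the endogenous locus, mice of both sexes were used, and the labels do not say which replicates share a mouse or a transduction. Each virus was used in triplicate whereas each group holds 5 libraries, and what sets replicates 4 and 5 apart from 1 to 3 is not stated. P-values therefore measure the spread between these libraries, which may in part be technical.

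Primary, or azurophil, granules are formed at the promyelocyte stage of neutrophil development and carry microbicidal enzymes to the mature cell. Transcription of their genes is largely confined to that stage and is switched off as the cells mature and turn to the contents of the secondary and tertiary granules. *Mpo* encodes myeloperoxidase, which makes hypochlorous acid. *Elane*, *Prtn3* and *Ctsg* encode the serine proteases neutrophil elastase, proteinase 3 and cathepsin G, and *Ms4a3* encodes a membrane protein of the MS4A family that marks granulocyte-monocyte progenitors.

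On the mouse genome GRCm38, *Mpo* (ENSMUSG00000009350.13) lies at chr11:87793581-87804413 on the plus strand, *Elane* (ENSMUSG00000020125.7) at chr10:79886247-79888215 (plus), *Prtn3* (ENSMUSG00000057729.12) at chr10:79874476-79883174 (plus), *Ctsg* (ENSMUSG00000040314.2) at chr14:56099881-56102574 (minus) and *Ms4a3* (ENSMUSG00000024681.11) at chr19:11629496-11640851 (minus). *Elane*, *Ctsg* and *Ms4a3* overlap no other annotated gene. *Prtn3* overlaps *Plppr3* and *Mpo* overlaps *Gm11505*, both on the opposite strand. Whether the counting used strand is not given in the sources used here, so reads of these pairs cannot be told apart.

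Promoter sequence is shown because the 5 genes are read as a group below. In the RefSeq window of 250 bases before to 50 bases after each start, GGAAGT, the core bound by ETS factors such as PU.1, was found in 5 of 5 members, against 23.8% of 32851 windows, both strands searched. GAGGAA, a PU box, was also found in 5 of 5, against 28.3%, and overlaps GGAAGT by 4 bases in *Mpo*, *Elane* and *Prtn3*. The motifs were chosen after these sequences had been seen, and a match is a description of the letters only. The stretch around the match is given for each gene on its own strand (GRCm38, RefSeq windows), with GGAAGT in capitals.
Mpo: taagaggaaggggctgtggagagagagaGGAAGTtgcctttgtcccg
Elane: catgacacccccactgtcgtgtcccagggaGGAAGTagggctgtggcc
Prtn3: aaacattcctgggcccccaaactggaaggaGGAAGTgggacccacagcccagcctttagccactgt
Ctsg: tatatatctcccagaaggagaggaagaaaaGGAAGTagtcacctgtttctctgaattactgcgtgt
Ms4a3: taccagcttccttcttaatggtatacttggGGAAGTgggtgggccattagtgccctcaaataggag

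The stretches cover chr11:87793534-87793580, chr10:79886199-79886246, chr10:79879544-79879609, chr14:56102744-56102809 and chr19:11640871-11640936, and the first base of GGAAGT stood 222, 83, 93, 205 and 55 bases upstream of the RefSeq start, in that order. The *Prtn3* stretch lies inside the longer GENCODE model of that gene. The *Mpo* and *Elane* stretches end directly before the GENCODE starts of these genes (87793581 and 79886247), which lie upstream of the RefSeq starts. Their matches are thus closer to the GENCODE starts than the distances given. The other patterns were less shared: the MYB pattern AACNG was found in 4 of 5 (80.3% of all windows), TATAA in 3 of 5 (24.9%), TGTGGT of RUNX factors in 1 of 5 (16.8%) and TTGCNNAA of C/EBP factors in 1 of 5 (10.8%).

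Libraries held 31559914 to 75810659 counts, of which the 5 genes together took 0.0113% (Empty replicate 2) to 0.206% (G-NHX9-8FA replicate 5). No member had fewer than 481 counts in a library, so counting error was small beside the spread between libraries. Levels below are CPM, the count of a gene relative to the library total, scaled by TMM factors, which ranged from 0.899 to 1.11. Empty replicates 4 and 5 stood apart from the other 33 libraries on the third principal component (-58.2 and -57.8, against -32.7 to 28.0 for the rest), which held 7.79% of the variance. Results that rest on them are given without them where the call changed.

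In Empty, *Mpo* was at 217, 32.8, 164, 215 and 61.9 CPM in replicates 1 to 5, and *Elane* at 92.5, 11.0, 77.7, 98.8 and 54.6 CPM. Replicate 2 was the lowest library for 4 of the 5 genes (*Ctsg* was lowest in replicate 5). Summed over the 5 genes, Empty had 363 ± 189 CPM (SD, n = 5), and this control group was among the most variable.

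In G-NHX9, the sum was 1233 ± 142 CPM (n = 5), and for each of the 5 genes every G-NHX9 library lay above every Empty library, as was so for 10.6% of all genes tested. *Ctsg* was at 344, 496, 331, 405 and 350 CPM in G-NHX9 against 116, 54.1, 78.6, 81.1 and 38.9 CPM in Empty, a 5.23-fold difference (log2 fold change 2.39 ± 0.30 SE, adjusted p = 1.6e-07, edgeR quasi-likelihood test). *Elane* was 4.22-fold higher (log2 2.08 ± 0.44, adjusted p = 0.00041). The same test called *Prtn3*, 3.36-fold higher, and *Ms4a3*, 3.88-fold higher. *Mpo* was at 288, 255, 245, 234 and 300.2 CPM, 1.91-fold above Empty with an adjusted p of 0.053, just outside the threshold of 0.05. Thus 4 of 5 members were called higher, in a comparison in which 16.9% of all genes tested were called higher. *Mpo* was called with library sizes without TMM, with DESeq2 (adjusted p = 0.042) and with the sex-linked score as a covariate (0.045), and also without Empty replicate 1 (0.026) or replicate 4 (0.03), with a range of 0.022 to 0.15 over all alternatives. These are bulk libraries, in which more cells of a type and more RNA per cell cannot be told apart.

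**Figure D1:**
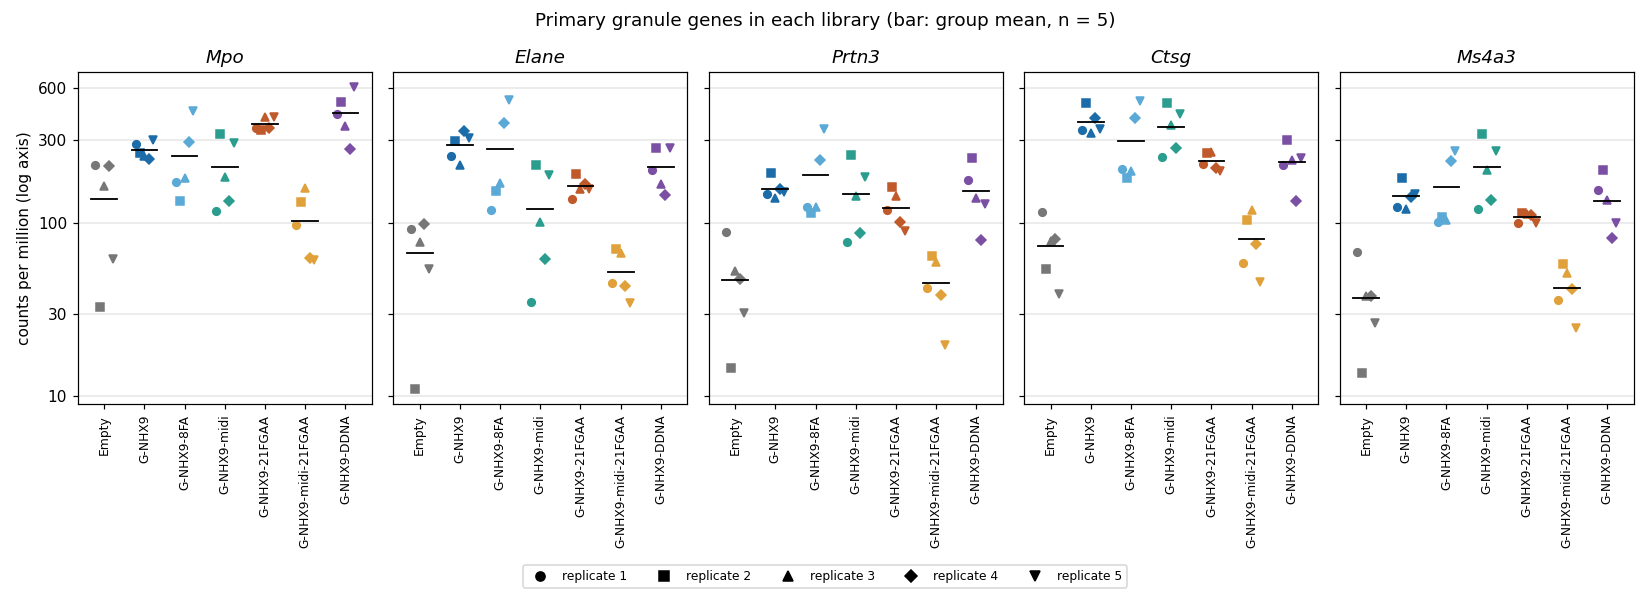
CPM of the 5 genes (log axis) in each of the 35 libraries by group, with the marker shape giving the replicate number and a bar the group mean. All 5 G-NHX9 libraries sit above all 5 Empty libraries in every panel, G-NHX9-midi-21FGAA sits at the height of Empty, and G-NHX9-8FA splits into replicates 1 to 3 and the higher replicates 4 and 5.

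In G-NHX9-8FA, 4 of 5 members were called higher than in Empty, again all but *Mpo* (13.4% of genes tested were called higher). The folds were 4.0 for *Elane*, 4.02 for *Prtn3*, 4.06 for *Ctsg* and 4.36 for *Ms4a3*, with adjusted p-values (edgeR) from 3e-06 to 0.00076. Libraries of this group fell into a lower and a higher set. *Elane* was at 120, 152.5, 171, 379 and 517 CPM in replicates 1 to 5 and *Ms4a3* at 101, 108.5, 104, 228.5 and 262 CPM, so that replicates 4 and 5 were well above replicates 1 to 3 in both genes. When only replicates 1 to 3 of every group were used, 2 of the 5 members were called (7.76% of genes tested), since *Elane* (log2 1.28, adjusted p = 0.13) and *Prtn3* (1.2, 0.07) no longer passed. *Mpo* was at 134 to 441 CPM, 1.77-fold above Empty (adjusted p = 0.1), and overlapped it.

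In G-NHX9-midi, 3 of 5 members were called higher than in Empty, where 20.5% of genes tested were. *Ms4a3* had its highest level of any group here, at 121, 328, 204, 137 and 262 CPM against 13.7 to 68.2 CPM in Empty, a 5.70-fold difference (log2 2.51 ± 0.34, adjusted p = 3.6e-07, edgeR). *Ctsg* was 4.88-fold higher and *Prtn3* 3.16-fold higher. *Elane*, in contrast, was at 35.3, 218, 102, 61.9 and 190.5 CPM. It overlapped Empty and was not called (1.81-fold, adjusted p = 0.11), although without G-NHX9-midi replicate 1 it passed (adjusted p = 0.035). *Mpo* was 1.52-fold above Empty (adjusted p = 0.2). The libraries of this group kept 1 order in all 5 genes, with replicate 2 highest, then 5, 3, 4 and 1.

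In G-NHX9-21FGAA, 5 of 5 members were called higher than in Empty (14.7% of genes tested), with little spread between libraries. *Mpo* was at 352, 346, 407, 352 and 408.5 CPM, 2.7-fold above Empty (log2 1.43 ± 0.38, adjusted p = 0.0049, edgeR). *Ctsg* was 3.09-fold, *Ms4a3* 2.93-fold, *Prtn3* 2.62-fold and *Elane* 2.43-fold higher (adjusted p from 0.00012 to 0.024). All 5 libraries lay above all Empty libraries for each gene, as for 9.05% of genes tested, though *Prtn3* was separated only by 89.8 against 89.3 CPM. Without Empty replicates 4 and 5, 3 of 5 were called (10.1% of genes tested), with *Elane* (log2 1.44, adjusted p = 0.053) and *Prtn3* (1.24, 0.055) just outside. *Elane* was also lost without Empty replicate 2 alone (adjusted p = 0.058) or replicate 5 alone (0.056).

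In G-NHX9-DDNA, 5 of 5 members were called higher than in Empty, where 9.85% of genes tested were. *Mpo* had its highest mean here, at 424, 500.0, 365, 268 and 610.5 CPM, 3.14-fold above Empty (log2 1.65 ± 0.38, adjusted p = 0.0034, edgeR). The other folds were close to it, from 3.04 for *Ctsg* to 3.65 for *Ms4a3*, and each of 5 genes was called without any 1 library and under each other setting tried.

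In G-NHX9-midi-21FGAA, none of 5 members was called against Empty, where 9.59% of genes tested were called higher and 7.32% lower. The count was 0 in edgeR and in DESeq2, and 0 at an unadjusted p under 0.05. *Mpo* was at 98.0, 132, 160, 62.6 and 61.3 CPM and *Ctsg* at 59.2, 104.5, 119.6, 76 and 45.6 CPM, both within or near the spread of Empty. The fold changes ran from 0.743 (*Mpo*, 95% interval of the log2 fold change -1.16 to 0.30) to 1.15 (*Ms4a3*, -0.43 to 0.83).

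**Figure D2:**
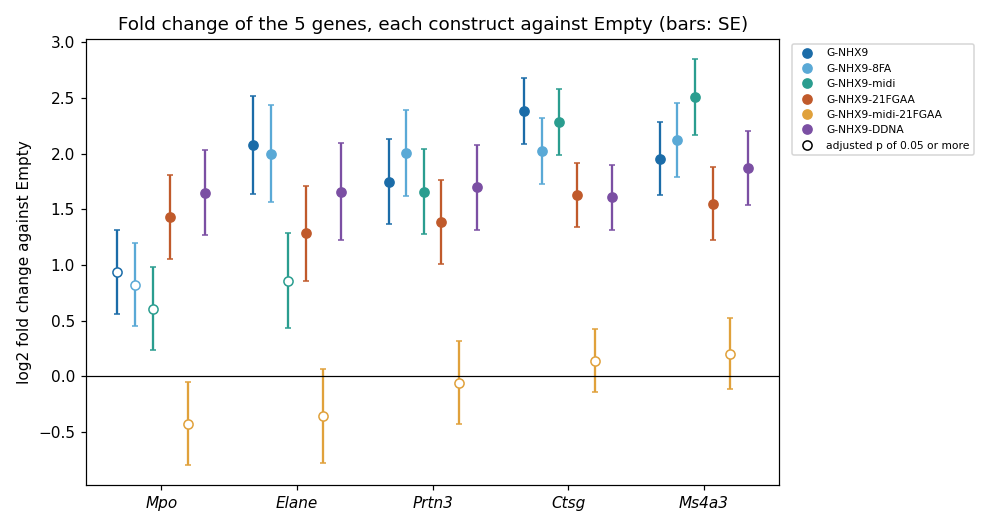
Log2 fold change of each gene in the 6 constructs against Empty, with bars for the SE and open circles for adjusted p-values of 0.05 or more. Each construct except G-NHX9-midi-21FGAA lies above 0 for all 5 genes, and the open circles above 0 are *Mpo* in G-NHX9, G-NHX9-8FA and G-NHX9-midi and *Elane* in G-NHX9-midi.

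All 6 comparisons share the same 5 Empty libraries. The median log2 fold change of the 5 members was 1.956 in G-NHX9, 2.01 in G-NHX9-8FA, 1.66 in G-NHX9-midi, 1.43 in G-NHX9-21FGAA, -0.06 in G-NHX9-midi-21FGAA and 1.66 in G-NHX9-DDNA, whereas the median over all genes tested lay between -0.02 and 0.03. Ordered by mean level, neighbouring groups overlapped in 26 of 30 steps. The 4 steps without overlap were *Mpo* in G-NHX9-21FGAA above G-NHX9, *Prtn3* in G-NHX9-21FGAA above Empty, *Ctsg* in G-NHX9-DDNA above G-NHX9-midi-21FGAA and *Ms4a3* in G-NHX9-21FGAA above G-NHX9-midi-21FGAA.

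The 21FGAA changes were made in both the full-length and the midi backbone, which allowed their effect to be compared. In the midi backbone, 5 of 5 members were lower in G-NHX9-midi-21FGAA than in G-NHX9-midi, against 22.2% of genes tested called lower (21.0% higher). *Ms4a3* was 4.95-fold lower (log2 -2.31 ± 0.34, adjusted p = 1e-06, edgeR) and *Ctsg* 4.44-fold lower (-2.15 ± 0.29, 3.6e-07). *Prtn3* was 3.29-fold, *Elane* 2.33-fold and *Mpo* 2.05-fold lower. The ranges of *Ms4a3*, *Ctsg* and *Prtn3* did not overlap between these groups, and those of *Mpo* and *Elane* did, while 16.0% of genes tested were lower without overlap. The calls of *Mpo* (adjusted p = 0.025) and *Elane* (0.021) were lost without G-NHX9-midi replicate 2 (0.09 and 0.1) or replicate 5 (0.066 and 0.069). They were also lost without G-NHX9-midi-21FGAA replicate 5 (0.072 and 0.057), in each case leaving 3 of 5 called, and that of *Mpo* without replicate 4 (0.072).

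In the full-length backbone, none of 5 members was called in G-NHX9-21FGAA against G-NHX9 by edgeR or by DESeq2, where 17.2% of genes tested were called in either direction, and 1 (*Ctsg*) had an unadjusted p under 0.05. The libraries of these groups did not overlap in 4 of 5 genes, against 11.5% of genes tested. *Mpo* was higher in all 5 G-NHX9-21FGAA libraries (346 to 408.5 CPM) than in any of G-NHX9 (234 to 300.2 CPM). *Elane*, at 138 to 193 CPM against 215 to 342 CPM, was lower in all 5, as were *Ctsg* (199 to 256 against 331 to 496 CPM) and *Ms4a3* (99.7 to 114 against 121 to 182 CPM). The fit shares its estimate of the spread over all 7 groups, and these are the 2 groups with the smallest spread in *Mpo* (CV 10.7% in G-NHX9 and 8.56% in G-NHX9-21FGAA, against 30% to 62.4% in the others). When the model was fitted to these 2 groups alone, 4 of 5 were called, where 13.8% of genes were, *Mpo* higher (adjusted p = 0.0054) and *Elane* (0.0021), *Ctsg* (0.0018) and *Ms4a3* (0.036) lower.

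The difference between both effects was tested as an interaction term, in which 12.6% of genes tested were called. The effect of 21FGAA was more negative in the midi backbone for *Ms4a3* (log2 difference -1.9 ± 0.46 SE, adjusted p = 0.0044, edgeR) and for *Ctsg* (-1.39 ± 0.40, 0.018). *Mpo* had a difference of -1.53 ± 0.53 and missed the threshold (0.051), which it passed in DESeq2 (0.03). It also passed with the replicate number as a block (-1.51, edgeR adjusted p = 0.049), where 20.0% of genes tested were called. Its adjusted p ran from 0.011 to 0.24 over all alternatives. *Prtn3* (-1.36 ± 0.53, 0.089) and *Elane* (-0.43 ± 0.60, 0.71) were not called. A fit to the 4 groups alone, in which 12.0% of genes were called, gave 4 calls, with *Mpo* (0.011) and *Prtn3* (0.04) added.

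**Figure D3:**
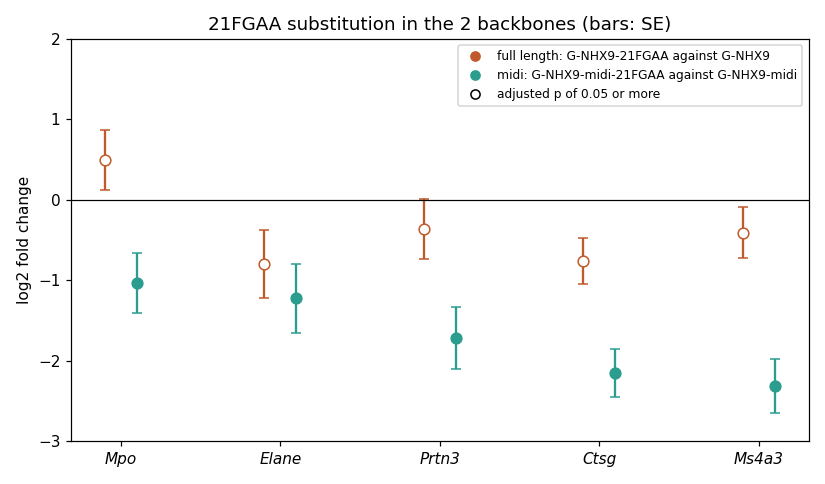
Log2 fold change, with SE, of each gene on adding 21FGAA to the full-length backbone (G-NHX9) and to the midi backbone, with open circles for adjusted p-values of 0.05 or more. All 5 midi values lie below those of the full-length backbone, from -1.04 for *Mpo* to -2.31 for *Ms4a3*, while the full-length values run from 0.50 for *Mpo* to -0.79 for *Elane*.

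Constructs were next compared with each other. G-NHX9-8FA did not differ from G-NHX9 in any member by edgeR or DESeq2, with 0 at an unadjusted p under 0.05 (14.5% of genes tested were called). The log2 differences ran from -0.36 for *Ctsg* (95% interval -0.92 to 0.19) to 0.26 for *Prtn3* (-0.47 to 0.99), so that a difference of nearly 2-fold is not excluded. Over replicates 1 to 3 alone, *Ctsg* was lower in G-NHX9-8FA (log2 -1.01, adjusted p = 0.028). G-NHX9-midi differed from G-NHX9 in *Elane* only (1 of 5, against 19.7% of genes tested), which was 2.32-fold lower (log2 -1.22 ± 0.43, adjusted p = 0.041). The call was lost without any 1 of G-NHX9 replicates 2, 4 and 5 or of G-NHX9-midi replicates 1, 3 and 4 (adjusted p from 0.061 to 0.11).

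In G-NHX9-DDNA, *Ctsg* was 1.72-fold lower than in G-NHX9 (log2 -0.78 ± 0.28, adjusted p = 0.046), in 5 of 5 libraries below every G-NHX9 library (7.21% of genes tested were), and was the 1 of 5 members called, where 22.1% of genes tested were. The call was lost on leaving out any 1 library of the 10 except G-NHX9-DDNA replicate 2 (adjusted p from 0.054 to 0.14). *Mpo* was 1.64-fold higher (adjusted p = 0.19), and with these 2 groups alone it was called (0.018), where 19.6% of genes were. G-NHX9-21FGAA and G-NHX9-8FA differed in no member by either tool, with 0 at an unadjusted p under 0.05, although 32.4% of genes tested were called. G-NHX9-midi and G-NHX9-8FA likewise differed in none by either tool (1, *Elane*, at an unadjusted p under 0.05), with 4.25% of genes tested called. Over replicates 1 to 3 *Ctsg* was higher in G-NHX9-midi than in G-NHX9-8FA (log2 0.93, adjusted p = 0.036).

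The make-up of the 5 genes' transcripts differed between groups in a way that the sum does not show. Taken as a share of the summed CPM of the 5, which is independent of library scaling, *Mpo* made up 35.4% ± 7.7 (SD, n = 5) in Empty. It was 21.7% ± 3.3 in G-NHX9, 21.4% ± 2.2 in G-NHX9-8FA and 19.9% ± 1.0 in G-NHX9-midi. In G-NHX9-21FGAA it was 37.6% ± 3.7, in G-NHX9-DDNA 37.5% ± 4.7 and in G-NHX9-midi-21FGAA 31.5% ± 4.6. No library of G-NHX9, G-NHX9-8FA or G-NHX9-midi exceeded 25.1%, and none of G-NHX9-21FGAA or G-NHX9-DDNA fell below 32.3%.

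*Ms4a3* took 20% ± 0.49 in G-NHX9-midi, where no library was below 19.3%, whereas the highest library of any other group was at 15.8%. *Elane* took 10.5% ± 3.4 in G-NHX9-midi, against 22.8% ± 2.7 in G-NHX9 and 22.0% ± 3.4 in G-NHX9-8FA. *Ctsg* took 35.8% ± 4.6 in G-NHX9-midi and 31.1% ± 2.5 in G-NHX9, and 19.4% ± 1.8 in G-NHX9-DDNA. *Prtn3* varied least, from 12.3% to 16.3% in group means. In Empty replicate 2, the lowest library, *Ctsg* alone took 42.8%. These shares are a description chosen after the levels had been seen, and no test was made on them.

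**Figure D4:**
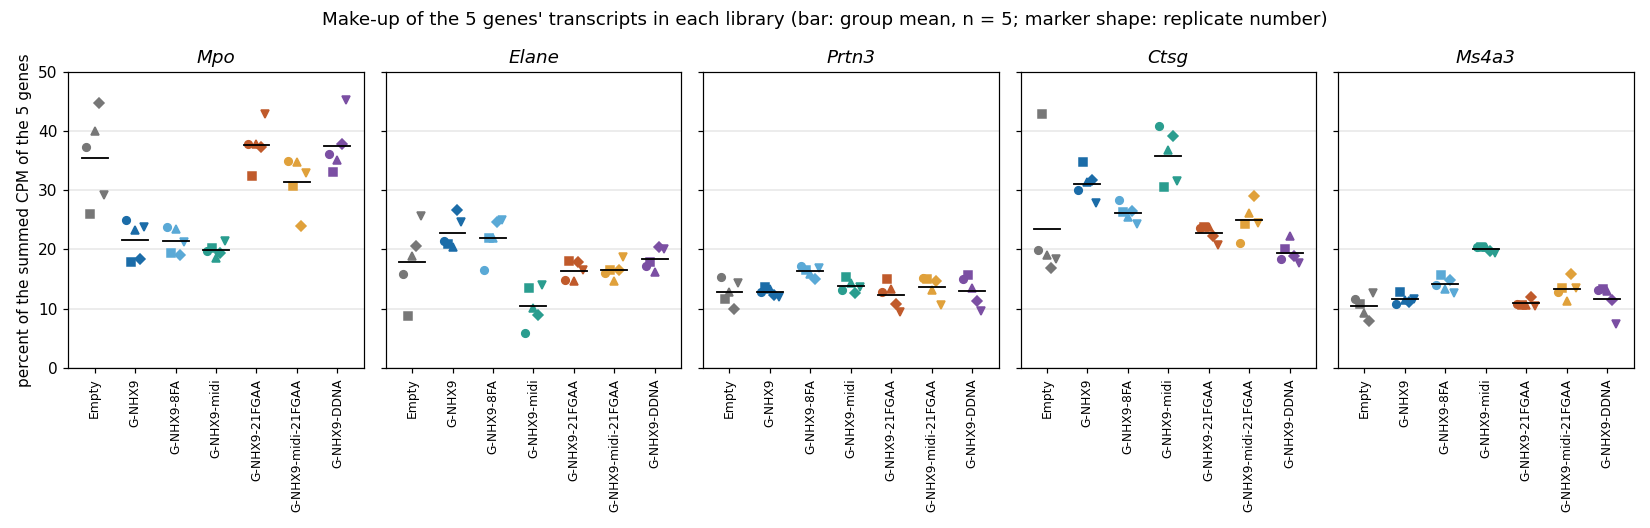
Percent of the summed CPM of the 5 genes taken by each gene in each library, with bars for group means. *Mpo* lies near 20% in G-NHX9, G-NHX9-8FA and G-NHX9-midi and above 32% in G-NHX9-21FGAA and G-NHX9-DDNA, and *Ms4a3* lies near 20% in all 5 G-NHX9-midi libraries and below 16% elsewhere.

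Across the 35 libraries, the log2 CPM of the members rose and fell together to unequal degrees. Pearson's r was highest between *Prtn3* and *Ms4a3* (0.96) and between *Ctsg* and *Ms4a3* (0.95), and lowest between *Mpo* and *Ctsg* (0.72) and between *Mpo* and *Ms4a3* (0.75). Around the group means, r ran from 0.73 for *Elane* and *Ctsg* to 0.97 for *Prtn3* and *Ms4a3*. The points share libraries and groups, so no p is given. Per kilobase of exon, *Ctsg* was the most abundant of the 5 in each of the 7 groups (71.3 CPM per kb in Empty and 373 in G-NHX9), closely followed by *Elane* in Empty (68.0). *Ms4a3* (19.6) and *Prtn3* (27.1) were the lowest in Empty. Exon length was the union over all GENCODE models, 1732 bases for *Prtn3* with its longer model, and the rank of *Prtn3* may depend on that length.

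Among 10302 genes that averaged 5 CPM or more, the profile most like the mean of the 5 over the 35 libraries was that of *Hip1r* (r = 0.92), followed by *Prss57* (0.91), *Lta4h* (0.91), *Plppr3* (0.90) and *Slain1* (0.89). *Prss57* encodes another neutrophil serine protease, and *Lta4h* the enzyme that makes leukotriene B4. *Prss57* was closest to *Ctsg* (0.96), *Lta4h* to *Prtn3* (0.93) and *Lipg* to *Ms4a3* (0.95). For *Elane* the nearest were *Egfl7* (0.87), *Lta4h* (0.86) and *Cebpe* (0.85), and for *Mpo* they were *Nxn* (0.78), *Arhgap19* (0.77) and *Gatm* (0.77).

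Pooled over all members, genes near them on the chromosome did not move in 1 direction. Of 28 neighbours tested with a start within 100 kb, 8 were higher and 4 lower in G-NHX9 against Empty. Their median log2 fold change was 0.06, and 16.9% of all genes tested were called higher and 15.2% lower. *Prss57*, whose start is 83515 bases from that of *Prtn3* and 95286 from that of *Elane*, rose with them (log2 1.91 ± 0.33, adjusted p = 3.2e-05). *Plppr3*, which overlaps *Prtn3*, rose as well (log2 2.47, adjusted p = 2.5e-07), and the strand caveat above applies to it. Also near *Elane* and *Prtn3*, *Palm* (log2 1.05, adjusted p = 3.3e-05, edgeR), *Ptbp1* (0.49, 0.0092), *Wdr18* (0.47, 0.0067) and *Arid3a* (0.29, 0.024) were called higher. The remaining neighbours tested near *Elane* and *Prtn3* were not called, so none there was called lower. *Ctsg* sits among the mast cell protease genes on chromosome 14, which did not keep 1 direction relative to it. In G-NHX9, *Mcpt2* fell from 145 ± 21 to 15.4 ± 6.8 CPM (n = 5 each, adjusted p = 9.9e-10, edgeR), *Mcpt4* fell from 49.1 ± 19 to 3.42 ± 0.50 CPM and *Mcpt8* from 260 ± 94 to 145 ± 61 CPM, while *Ctsg* rose. In G-NHX9-21FGAA and G-NHX9-DDNA, by contrast, *Mcpt2* rose with *Ctsg* (log2 1.46 and 1.16, adjusted p = 0.00037 and 0.0058, edgeR), as did *Mcpt1* (3.60 and 1.79, 0.00014 and 0.039). Both *Mcpt2* (1.03, 0.013) and *Mcpt1* (2.00, 0.022) also rose in G-NHX9-midi-21FGAA, where *Ctsg* was not called (0.14, 0.79). Next to *Ms4a3*, *Ms4a2*, a subunit of the mast cell IgE receptor, was not called in G-NHX9 (log2 -0.56, adjusted p = 0.11, edgeR). It rose in G-NHX9-21FGAA (1.56, 9e-05) and in G-NHX9-midi-21FGAA (1.14, 0.004), where *Ms4a3* was not called. *Oosp1* rose in G-NHX9 (1.66, 0.002), G-NHX9-8FA (3.28, 1.5e-07) and G-NHX9-midi (4.44, 1.8e-10), where it averaged 0.78, 2.42 and 5.39 CPM. *Oosp2* rose in the same groups (2.40, 2.76 and 4.07), at 0.12 to 0.40 CPM. *Ms4a6d* and *Gm38275* were not called in G-NHX9 (edgeR adjusted p = 0.69 and 0.43).

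The rise did not extend to granule contents in general. Of 15 other genes for azurophil granule and lysosomal contents, 14 were tested (*Bpi* did not pass the filter). In G-NHX9, 1 rose and 11 fell (15.2% of all genes tested were called lower). The gene that rose was *Prss57*, the other protease specific to these granules. The largest falls were in *Lyz1* (log2 -1.86 ± 0.26) and *Lyz2* (-1.75 ± 0.24), the lysozymes, which share near-identical sequence so that reads may be split between them. *Lyz2*, also made by macrophages, went from 29076 ± 4550 CPM in Empty to 8636 ± 3091 in G-NHX9 (n = 5 each).

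The same list gave 1 higher and 7 lower in G-NHX9-8FA (13.2% of genes tested were called lower), 1 and 11 in G-NHX9-midi (20.0%) and 1 and 11 in G-NHX9-21FGAA (12.5%). G-NHX9-DDNA gave 1 and 7 (7.35%). *Prss57* was the gene that rose in each of these 4, by 1.72, 1.86, 0.95 and 1.19 on the log2 scale. In G-NHX9-midi-21FGAA 1 rose (*Gusb*, beta-glucuronidase, log2 0.34) and 1 fell (*Hexa*, -0.60), and *Prss57* was at -0.11 (adjusted p = 0.86). The median log2 fold change of the list was negative in all 6 comparisons, from -0.71 in G-NHX9-midi to -0.22 in G-NHX9-midi-21FGAA.

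**Figure D5:**
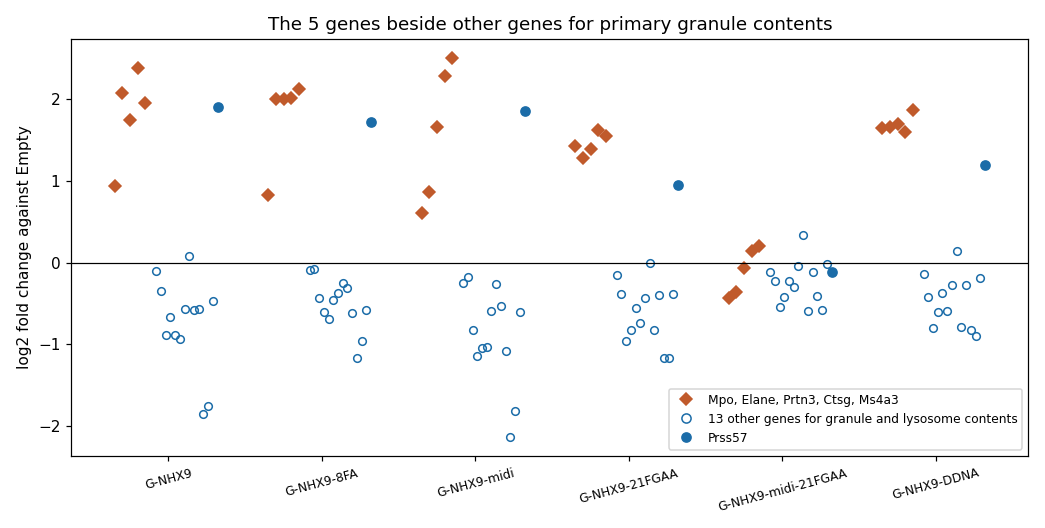
Log2 fold change against Empty of the 5 genes (diamonds) and of 14 other genes for azurophil granule and lysosomal contents (circles, with *Prss57* filled), by construct. *Prss57* lies among the 5 genes in G-NHX9, G-NHX9-8FA, G-NHX9-midi and G-NHX9-midi-21FGAA and below them in G-NHX9-21FGAA (0.95) and G-NHX9-DDNA (1.19), and the other 13 genes lie mostly below 0, down to -2.14 for *Lyz1* in G-NHX9-midi.

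Of 5 genes for storage and folding of granule proteins, 0 were called in G-NHX9 by edgeR, 1 was higher in G-NHX9-8FA, G-NHX9-midi and G-NHX9-midi-21FGAA and 2 in G-NHX9-21FGAA and G-NHX9-DDNA. *Srgn*, the proteoglycan serglycin that binds the proteases in the granule, rose in G-NHX9-8FA (log2 0.66), G-NHX9-midi (0.83) and G-NHX9-21FGAA (0.43). *Calr*, the chaperone calreticulin through which myeloperoxidase folds, rose in the 3 constructs G-NHX9-21FGAA (0.53), G-NHX9-midi-21FGAA (0.52) and G-NHX9-DDNA (0.58). Of 3 protease inhibitors, *Serpinb1a*, which inhibits all 3 proteases, rose in each of the 6 constructs by 0.35 to 0.73. *Slpi* rose in G-NHX9 (0.88), G-NHX9-8FA (1.21) and G-NHX9-midi (1.28), where *Serpinb6a*, an inhibitor of cathepsin G, fell by 1.55, 0.97 and 1.45.

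Of 12 transcription factors of this program and of other blood lineages, 4 rose and 3 fell in G-NHX9. Of all genes tested, 16.9% were called higher and 15.2% lower there. *Myb*, which is needed in dividing progenitors, rose most (log2 1.97 ± 0.18, adjusted p = 2e-10), from 30.9 ± 7.8 to 121 ± 9.2 CPM (n = 5 each). *Gfi1*, a repressor needed for neutrophil differentiation, rose from 18.0 ± 6.3 to 64.6 ± 11 CPM (log2 1.84 ± 0.26). *Klf4*, a monocyte factor, fell (-1.69 ± 0.29). *Cebpe*, which drives the step after the promyelocyte, also rose (1.02 ± 0.21), as did *Cebpa* (0.29 ± 0.11), whereas *Spi1*, the gene of PU.1, fell by 0.38.

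The counts of transcription factors were 4 higher and 3 lower in G-NHX9-8FA, 4 and 4 in G-NHX9-midi, 5 and 5 in G-NHX9-21FGAA, 2 and 2 in G-NHX9-midi-21FGAA and 4 and 2 in G-NHX9-DDNA. Over all genes tested, 13.4%, 20.5%, 14.7%, 9.59% and 9.85% were called higher and 13.2%, 20.0%, 12.5%, 7.32% and 7.35% lower, in that order. *Gfi1* was called higher in the same constructs as *Ctsg* and *Ms4a3*, with log2 fold changes of 2.28 in G-NHX9-8FA, 2.08 in G-NHX9-midi, 1.00 in G-NHX9-21FGAA, 0.93 in G-NHX9-DDNA and -0.28 (adjusted p = 0.5) in G-NHX9-midi-21FGAA. From G-NHX9-midi to G-NHX9-midi-21FGAA it fell by 2.35 on the log2 scale (adjusted p = 6.6e-09). *Gata1*, the erythroid and eosinophil factor, fell in G-NHX9-8FA (-1.73) and G-NHX9-midi (-2.25) and rose in G-NHX9-21FGAA (1.24), G-NHX9-midi-21FGAA (1.07) and G-NHX9-DDNA (0.80).

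Markers of other cell types moved with some of these results, and their part in them was not tested. Of 12 late neutrophil genes, 0 rose and 3 fell in G-NHX9, 7 rose and 0 fell in G-NHX9-8FA, 4 rose and 3 fell in G-NHX9-midi, 0 rose and 2 fell in G-NHX9-21FGAA, 0 and 3 in G-NHX9-midi-21FGAA and 2 and 2 in G-NHX9-DDNA. Their summed level was 9075 to 12955 CPM over the Empty libraries, 8594 to 14667 in G-NHX9 and 15385 to 34069 in G-NHX9-8FA. *Ltf*, the secondary granule gene lactoferrin, was not called in G-NHX9 (log2 -0.23) and fell in G-NHX9-midi (-1.20), unlike the 4 that rose there. In G-NHX9-midi the median log2 fold change of the late neutrophil genes was 0.12, and their sum was 10344 to 21970 CPM. Of 12 monocyte and macrophage genes, 5 rose and 1 fell in G-NHX9, 3 and 2 in G-NHX9-8FA, 3 and 5 in G-NHX9-midi, 0 and 4 in G-NHX9-21FGAA, and 0 and 1 in both G-NHX9-midi-21FGAA and G-NHX9-DDNA. *Ly6c2*, 1 of these 12, rose in G-NHX9, G-NHX9-8FA and G-NHX9-midi (log2 1.53, 1.83 and 2.07). The median log2 fold change of the 12 genes was 0.40, 0.47 and -0.39 in these groups, in that order.

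Of 11 erythroid genes, 11 fell in G-NHX9-8FA and 10 in G-NHX9-midi, 0 were called in G-NHX9, and 7, 9 and 3 rose in G-NHX9-21FGAA, G-NHX9-midi-21FGAA and G-NHX9-DDNA. Their summed level was 225 to 695 CPM over the Empty libraries, 24.0 to 73.3 in G-NHX9-8FA, 41.3 to 78.6 in G-NHX9-midi and 484 to 1564 in G-NHX9-midi-21FGAA. Mast cell and basophil genes (10) fell in G-NHX9 (7), G-NHX9-8FA (8) and G-NHX9-midi (8), and their sum was 1299 to 3671 CPM in Empty against 688 to 1024 in G-NHX9. In G-NHX9-21FGAA 3 of them rose and in G-NHX9-midi-21FGAA 4 did, and 0 were called in G-NHX9-DDNA. Eosinophil genes (8) fell in the same 3 groups (5, 8 and 8), and 1, 1 and 2 rose in G-NHX9-21FGAA, G-NHX9-midi-21FGAA and G-NHX9-DDNA.

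Megakaryocyte genes (7) fell in G-NHX9 (3), G-NHX9-8FA (7) and G-NHX9-midi (7), and 2, 0 and 0 rose in the remaining constructs in the order just given. Of 8 stem and progenitor genes, 5 rose and 1 fell in G-NHX9, 3 and 1 in G-NHX9-8FA, 3 and 2 in G-NHX9-midi, and 5, 3 and 4 rose with 0 falling in G-NHX9-21FGAA, G-NHX9-midi-21FGAA and G-NHX9-DDNA. Of 8 lymphoid genes only 2 passed the filter, and of these *Il7r* fell in G-NHX9, G-NHX9-8FA, G-NHX9-midi and G-NHX9-21FGAA. The starting population is labelled lineage-negative. After the week of culture, 2 of the 8 stem and progenitor genes, *Kit* (30.3 to 345 CPM) and *Cd34* (22.5 to 247 CPM), were detected in every library, beside the mature markers above. Which cells carried them cannot be told from bulk libraries. *Prtn3*, *Ctsg* and *Ms4a3* were called higher in both G-NHX9-midi and G-NHX9-21FGAA, whereas *Mpo* and *Elane* were called in G-NHX9-21FGAA but not in G-NHX9-midi. Erythroid, eosinophil and megakaryocyte sums were below those of Empty in G-NHX9-midi. In G-NHX9-21FGAA 7 erythroid genes were higher, and the erythroid sum was 354 to 1772 CPM. How far the make-up of the cultures bears on the members was not tested.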

How the data were processed

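The authors deposited raw read counts on 49671 mouse genes for 35 libraries, as whole numbers with no normalization. The submitters' processing notes name STAR 2.7.0d, HTSeq 0.11.2 and DESeq2 without their roles. The genome is mm10 (GRCm38), and the annotation release and strand setting are not given in the sources used here. Libraries were stranded total RNA, and the read length on the labels is not that of the article. The counting was not repeated. The members and lists were chosen with earlier results of these data known.

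Counts were analysed in R with edgeR 4.0.16 (limma 3.58.1). Genes were filtered with filterByExpr (17166 kept, 99.96% of counts), scaled by TMM and fitted over all 35 libraries with a mean for each group. The quasi-likelihood test was used with Benjamini-Hochberg adjustment over all genes of a comparison and a threshold of 0.05. SE is the absolute log2 fold change over the square root of F, and 95% intervals are 1.96 SE on either side. CPM are TMM-scaled, with a prior count of 2 on the log2 scale. The fit was tested on simulated data for G-NHX9 against Empty (16820 genes, 200 changed). It recovered 72.5% of 2-fold and 89.8% of 4-fold changes, with 9 unchanged genes called, and DESeq2 1.42.0 recovered 74.5% and 90.8%, with 17. The simulated libraries were independent and each gene had the same spread in every group. Unequal spread between groups and correlation between libraries of the same number were thus not covered.

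Genes named were the 5 members, up to 3 called genes of each list with the largest change, the genes of most similar profile, and chromosomal neighbours. *Cebpe*, *Cebpa*, *Spi1*, *Ltf*, *Ly6c2*, *Gata1*, *Slpi*, *Kit* and *Cd34* were added where the text follows them across groups. Of the gene identifiers, 49326 (99.3%) matched GENCODE M21 on GRCm38 once versions were dropped. Positions and exon lengths were taken from it, and promoter windows from RefSeq (GRCm38.p6). The labels number the libraries of a group from 1 to 5. Deviations from the group mean correlated by 0.232 on average between libraries of the same number and by -0.057 between others, and every pair exceeded 0.1 in 5 of 13 comparisons (G-NHX9, G-NHX9-midi-21FGAA and G-NHX9-DDNA against Empty, and G-NHX9-21FGAA and G-NHX9-DDNA against G-NHX9). In these the number may pair the libraries, but the values in the Results come from the fit without a replicate term. The replicate block was run as an alternative and changed no count of members called in these 5 comparisons. No 2 libraries of a group agreed within sampling noise (70 pairs). Alternatives were other size factors and filters, the replicate block, DESeq2, a fit to the groups compared only, a minimum fold change, a covariate for sex-linked expression, and leaving out libraries. Limiting Empty or every group to replicates 1 to 3 was chosen after seeing the data. Depth limits no member, and precision is set by the spread between libraries.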

Additional observations from a re-analysis of the deposited data

Results flagged for a closer look

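For 2 genes the effect of the 21FGAA changes differed between backbones by the interaction test, in which 12.6% of genes tested were called. The difference, midi minus full length, was -1.39 on the log2 scale for *Ctsg* (edgeR adjusted p = 0.018, lowest and highest 0.0091 and 0.044 on leaving out 1 library) and -1.90 for *Ms4a3* (0.0044, from 0.0024 to 0.014). Both genes were lower in 5 of 5 G-NHX9-midi-21FGAA libraries than in any G-NHX9-midi library, as were 16.0% of genes tested. None of 35 sets of 5 libraries (5 genes in 7 groups) held a library that stood apart by Dixon's test, where chance gives about 1 in 20. The test measures the gap of 1 library to its nearest, so 2 that deviate together, as G-NHX9-8FA replicates 4 and 5 did, can go unflagged.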

How the results depend on the processing

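Of 840 refits of a member's log2 fold change under other settings, 790 kept direction and side of the threshold, and of 750 with 1 library left out, 694 did. No called value changed sign. Depth limits no member, and the 5 libraries per group set the precision. The cause of the changes below was not tested. The number of members called moved to 0 in G-NHX9-DDNA against G-NHX9 with no filter on low counts and with a minimum absolute log2 fold change of 1. It moved to 0 in G-NHX9-midi against G-NHX9 with the sex-linked covariate. Without the libraries not labelled 8 weeks it was 3 in G-NHX9-21FGAA against Empty and 0 in G-NHX9-midi and G-NHX9-DDNA against G-NHX9. Fitted to the groups compared only, it was 0, 4 and 2 in G-NHX9-midi, G-NHX9-21FGAA and G-NHX9-DDNA against G-NHX9 and 4 in the interaction. With replicates 1 to 3 of Empty only it was 3 in G-NHX9-21FGAA against Empty. With replicates 1 to 3 of every group it was 2 in G-NHX9-8FA against Empty, 1, 0 and 0 in G-NHX9-8FA, G-NHX9-midi and G-NHX9-DDNA against G-NHX9, 3 in G-NHX9-midi-21FGAA against G-NHX9-midi and 1 in G-NHX9-midi against G-NHX9-8FA. With 1 library left out it was 4 to 5 in G-NHX9 and G-NHX9-21FGAA and 3 to 4 in G-NHX9-midi against Empty, 0 to 1 in G-NHX9-midi and G-NHX9-DDNA against G-NHX9, 3 to 5 in G-NHX9-midi-21FGAA against G-NHX9-midi and 2 to 3 in the interaction.

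With the replicate block, the interaction gave 3 calls, with *Mpo* added (log2 -1.51, edgeR adjusted p = 0.049), and called 20.0% of all genes in place of 12.6%. No other count of members called changed. The interaction includes G-NHX9-midi-21FGAA against G-NHX9-midi, where only 4 of 5 pairs of the same number correlated above 0.1. For related lists, 569 of 672 counts under other settings stayed within 1.5 times.

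Sign changes were all in differences that were not called. Against Empty in G-NHX9-midi-21FGAA, *Prtn3* went from -0.06 to 0.068 without TMM, *Ctsg* from 0.14 to -0.025 without the libraries not labelled 8 weeks and also with Empty replicates 1 to 3. With replicates 1 to 3 of every group, *Elane* went to 0.030 and *Prtn3* to 0.11 there. In that setting *Prtn3* was -0.42 and *Ms4a3* -0.46 in G-NHX9-8FA, and both were 0.22 in G-NHX9-DDNA, against G-NHX9. Against G-NHX9-8FA, *Elane*, *Prtn3*, *Ctsg* and *Ms4a3* were 0.17, 0.26, 0.34 and 0.10 in G-NHX9-21FGAA, and *Mpo* and *Prtn3* 0.39 and 0.40 in G-NHX9-midi. With 1 library left out, G-NHX9-midi-21FGAA against Empty ranged from -0.28 to 0.32 for *Prtn3*, -0.047 to 0.37 for *Ctsg* and -0.0010 to 0.56 for *Ms4a3*. G-NHX9-8FA against G-NHX9 ranged from -0.43 to 0.043 for *Mpo*, -0.46 to 0.11 for *Elane*, -0.093 to 0.39 for *Prtn3* and -0.079 to 0.30 for *Ms4a3*. Against G-NHX9, G-NHX9-midi ranged from -0.35 to 0.071 for *Prtn3* and -0.23 to 0.016 for *Ctsg*, and G-NHX9-DDNA from -0.27 to 0.11 for *Prtn3* and -0.28 to 0.048 for *Ms4a3*. G-NHX9-midi against G-NHX9-8FA ranged from -0.43 to 0.11 for *Mpo* and -0.61 to 0.0017 for *Prtn3*.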
